A study of Mus musculus with 34 samples.

Results

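Genes whose products assemble ribosomal subunits in the nucleolus were followed in single mouse embryos that carried injected mRNA for wild-type (WT) CHK1 or for a CHK1 mutant written R442Q. The members were chosen by gene symbol alone. They were the Utp, Nop, Rrp and Nol genes with a number in the symbol, Surf6, and Ncl, Npm1, Fbl, Dkc1, Gar1, Nhp2, Wdr12, Bop1 and Pes1. The rule found 45 members among the 49686 genes of the zygote and late 2-cell tables, and the same 45 among the 51734 genes of the blastocyst table. They lie on 19 chromosomes. Of the 45, 4 encode parts of box C/D ribonucleoproteins, 4 of box H/ACA ribonucleoproteins, 2 the abundant nucleolar proteins nucleolin and nucleophosmin, 19 factors of the small subunit (40S) and 13 factors of the large subunit (60S). The other 3, Nol3, Nol4 and Nol8, met the symbol rule and were placed in none of these groups: Nol3 is known as an inhibitor of apoptosis, and no role is stated here for Nol4 or Nol8.

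The study injected early zygotes with 1 of the 2 mRNAs and sequenced whole single embryos at 3 stages, to see what happens before implantation when the DNA damage checkpoint is perturbed; CHK1 is a kinase of that checkpoint. There were 5 zygotes with WT CHK1 mRNA and 6 with R442Q, 4 late 2-cell embryos with WT and 5 with R442Q, and 7 blastocysts of each kind. Every embryo had therefore received extra CHK1 mRNA as a zygote, no uninjected group is used here, and all 14 blastocysts had also been cultured with a CHK1 inhibitor at 30 nM. Below, "WT" and "R442Q" name the injected mRNA and not an allele of the embryo, and a replicate is 1 embryo; the labels give no strain, parent or batch, so p-values measure the spread between embryos.

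Total estimated counts were 7183632 to 11296522 per zygote and 5727956 to 8916343 per late 2-cell embryo; blastocysts are listed only as FPKM, fragments scaled to transcript length and library size, so their depth is unknown. CPM below is a count per 1000000 of a library's total. Chek1, the injected gene, stood at 4593 to 8653 CPM in WT zygotes and 5597 to 7171 CPM in R442Q zygotes, with an edgeR difference of 0.20 ± 0.15 (SE, log2; adjusted p 0.416). Its mean FPKM was 6034 and 6321 in WT and R442Q zygotes, 431 and 524 in late 2-cell embryos and 21 and 18.3 in blastocysts. As CPM the late 2-cell values overlapped, at 396 to 675 in WT and 259 to 720 in R442Q. Injected and endogenous mRNA cannot be told apart in these values. The stage labels were checked against marker genes. The 10 oocyte and zygote markers summed to 9742 to 13172 FPKM in zygotes, 1496 to 7399 FPKM in late 2-cell embryos and at most 6.45 FPKM in blastocysts. All 7 trophectoderm and all 7 inner cell mass markers reached 1 FPKM in some blastocyst of each construct. The inner cell mass sums overlapped between zygotes (62.15 to 194 FPKM) and blastocysts (94.3 to 596 FPKM), so they do not separate those stages. Of 13 markers of cumulus cells, which surround the egg, 3 reached 1 FPKM in a WT zygote and 5 in an R442Q zygote. Amh was at 0 in all zygotes. The sum of the 13 was 8.58 to 15.4 FPKM in zygotes and 49.5 to 107 FPKM in late 2-cell embryos. At late 2-cell too, 3 reached 1 FPKM in a WT embryo (Tnfaip6, Star and Nr5a2) and 5 in an R442Q embryo, so that sum rests on few genes. The part of these markers in the results was not tested. R442Q blastocyst replicate 7 stood apart, with 8189 genes at 1 FPKM or more against 10962 to 12182 in the other R442Q blastocysts and 9852 to 12191 in the WT ones, so the differences between constructs there are also given without it for the members named. Late 2-cell R442Q replicate 3 stood apart in the other direction, with 16211 such genes against 11984 to 13475 in the other R442Q and 13049 to 14210 in the WT embryos of that stage.

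Ribosomes are made in the nucleolus, where RNA polymerase I transcribes a long precursor of ribosomal RNA. Small nucleolar ribonucleoproteins guide its chemical modification, those of the box C/D class by adding methyl groups and those of the box H/ACA class by turning uridine into pseudouridine. The small subunit processome, a large particle that includes the UTP proteins, folds and cuts the 18S part of the precursor, and a separate set of factors, among them the complex of PES1, BOP1 and WDR12, matures the 28S and 5.8S parts into the large subunit. In mouse, the zygote holds compact nucleolar precursor bodies, and transcription of ribosomal RNA resumes when the embryonic genome is activated in the 2-cell embryo.

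Promoters of 4 members are shown because 2 of them, Nop2 and Nol11, had among the largest rises from zygote to late 2-cell, and the other 2, Pes1 and Utp4, had the most negative R442Q differences in late 2-cell embryos and zygotes.
The windows run from 250 bases before to 50 bases after the RefSeq start site (GRCm38.p6), are written 5′ to 3′ on the gene's strand, and have in capitals each match, on either strand, to the E-box CACGTG or to CGGAAG, the core bound by ETS factors.
Nop2, chr6:125131633-125131932, plus strand: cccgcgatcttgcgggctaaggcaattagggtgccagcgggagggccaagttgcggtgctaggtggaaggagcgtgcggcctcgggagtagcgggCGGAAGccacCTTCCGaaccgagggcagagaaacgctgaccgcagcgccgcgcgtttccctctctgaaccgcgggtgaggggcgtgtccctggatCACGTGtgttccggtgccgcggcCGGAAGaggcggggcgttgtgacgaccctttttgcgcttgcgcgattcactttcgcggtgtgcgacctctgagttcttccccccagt
Nol11, chr11:107189332-107189631, minus strand: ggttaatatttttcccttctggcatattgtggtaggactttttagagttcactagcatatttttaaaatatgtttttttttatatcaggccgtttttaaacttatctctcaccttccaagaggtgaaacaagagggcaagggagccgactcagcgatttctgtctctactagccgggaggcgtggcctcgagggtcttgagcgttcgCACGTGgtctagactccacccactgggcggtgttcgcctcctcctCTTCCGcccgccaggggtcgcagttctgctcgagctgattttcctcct
Pes1, chr11:3963725-3964024, plus strand: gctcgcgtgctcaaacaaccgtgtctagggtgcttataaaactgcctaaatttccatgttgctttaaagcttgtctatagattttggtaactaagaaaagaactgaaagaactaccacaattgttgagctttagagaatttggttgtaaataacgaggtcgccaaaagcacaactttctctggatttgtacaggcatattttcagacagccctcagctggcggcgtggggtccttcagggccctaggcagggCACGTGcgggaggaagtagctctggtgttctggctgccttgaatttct
Utp4, chr8:106893390-106893689, plus strand: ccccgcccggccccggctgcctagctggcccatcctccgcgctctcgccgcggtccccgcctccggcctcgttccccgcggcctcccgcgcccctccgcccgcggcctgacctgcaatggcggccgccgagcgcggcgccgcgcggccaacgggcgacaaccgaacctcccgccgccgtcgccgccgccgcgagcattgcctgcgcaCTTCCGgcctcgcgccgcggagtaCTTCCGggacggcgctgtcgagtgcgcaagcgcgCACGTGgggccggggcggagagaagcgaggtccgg
All 4 windows hold CACGTG, whose first base lies at -60 in Nop2, -43 in Nol11, 3 in Pes1 and 16 in Utp4, counted from the start site.
Of these 4, Pes1 is the one without a CGGAAG match, and Nop2 has 3. RefSeq windows were found for 34 of the 45 members, 40 windows in all.
CACGTG was in 8 of the 40 (20.0%) against 7.15% of all 32851 promoter windows of the same length, and CGGAAG in 23 of 40 (57.5%) against 16.9%.
The shares were nearer to each other for CCAAT (32.5% against 37.4%) and TATAAA (12.5% against 13.6%), and CATGCG, a core of the NRF1 site, was in 12.5% against 6.5%.
CACGTG and CGGAAG occurred together in the windows of Nol11, Nop2, Utp18, Utp20 and Utp4. These are matches of letters, and no binding was measured.

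Levels of different genes were compared as FPKM, which is scaled to transcript length. In WT zygotes the median member stood at 13.1 FPKM, 29 of the 45 had a mean of at least 10 FPKM, and 3 were under 1 FPKM. The medians were 53.7 FPKM in WT late 2-cell embryos and 38.9 FPKM in WT blastocysts; in R442Q embryos they were 10.3, 33.5 and 32.2 FPKM at the 3 stages, the last 33.6 FPKM without replicate 7. The FPKM tables were made separately for each stage and their column sums differed. They were 669904 to 687863 in zygotes and 979070 to 1164490 in blastocysts. In late 2-cell embryos they were 712234 to 742246 in WT and 814376 to 976830 in R442Q, without overlap. Levels across stages are therefore a description with no test, and FPKM of WT and R442Q late 2-cell embryos are not on 1 scale.

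Npm1, which encodes nucleophosmin, was the most abundant member in zygotes, at 924 ± 134 (SD, n = 5) FPKM in WT, and stood at 725 ± 233 (SD, n = 4) FPKM in WT late 2-cell embryos and 734 ± 317 (SD, n = 7) FPKM in WT blastocysts. In WT zygotes it was followed by Dkc1, the pseudouridine synthase of box H/ACA particles, at 203 ± 53.5 (SD, n = 5) FPKM, and by Ncl, which encodes nucleolin, at 154 ± 38.2 (SD, n = 5) FPKM. Ncl lay within 1 SD of Dkc1, and Nop56 came next, at 130.0 ± 22.9 (SD, n = 5) FPKM. The lowest in WT zygotes were Nop16 (0.11 FPKM), Nol3 (0.118 FPKM) and Nol11 (0.924 FPKM). By WT late 2-cell, Nop16 stood at 114 ± 22 (SD, n = 4) FPKM and Nol11 at 57.5 ± 13 (SD, n = 4) FPKM, so both were far above their zygote levels, while Nol4 was at 0 in all 4 embryos and Nol3 at 0.598 FPKM. The highest members at that stage after Npm1 were Nop58, at 391 ± 59.7 (SD, n = 4) FPKM, and Nop56, at 373 ± 79.5 (SD, n = 4) FPKM, which differed by less than their spread.

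By mean FPKM over both constructs, 6 members were highest in zygotes (Dkc1, Nol4, Nol10, Pes1, Rrp1b and Utp4), 26 in late 2-cell embryos and 13 in blastocysts. The order depends on the construct for some: in WT embryos Pes1 had 37.2, 37.4 and 29.2 FPKM at the 3 stages, and Npm1, highest in late 2-cell embryos over both constructs, was highest in zygotes. The 2 copies of Utp14 differed in this order: Utp14a, on the X chromosome, had means of 12.6, 53.7 and 43.7 FPKM in WT zygotes, late 2-cell embryos and blastocysts, and the autosomal Utp14b had 1.24, 28 and 2.61 FPKM. Utp14b was below Utp14a at each stage and highest in late 2-cell embryos; it overlaps Acsl3 on the same strand, so reads of the 2 genes may be split. In WT blastocysts the highest were Npm1, Nop56, at 623 ± 116 (SD, n = 7) FPKM, and Nhp2, at 598 ± 101 (SD, n = 7) FPKM. Nop56 is a scaffold of box C/D particles and Nhp2 a core protein of box H/ACA particles. The lowest there were Utp14b, Nol3 (0.574 FPKM) and Nol4 (0.11 FPKM).

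**Figure D1:**
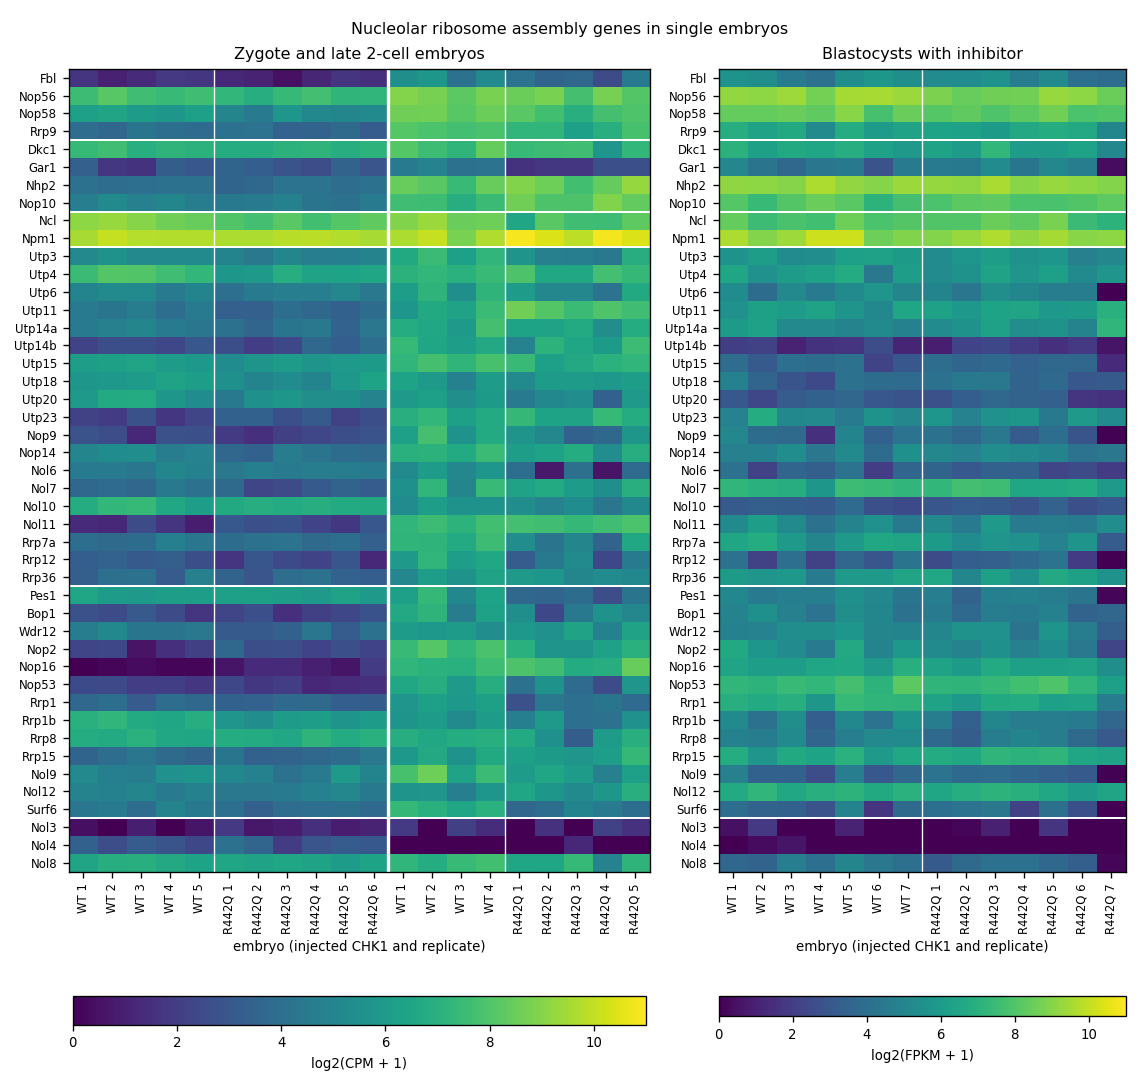
Level of each of the 45 members (rows, in blocks by role: box C/D, box H/ACA, nucleolin and nucleophosmin, 40S, 60S, other) in each embryo (columns). Colour is log2(CPM + 1) for zygotes and late 2-cell embryos on the left and log2(FPKM + 1) for blastocysts on the right, and the 2 scales are not comparable; most rows brighten at the thick white line between zygotes and late 2-cell embryos, and R442Q blastocyst 7 is dark in many rows.

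The change from zygote to late 2-cell was tested first in WT embryos. It spans genome activation, and box C/D genes, most 40S genes and most 60S genes rose together while nucleolin and nucleophosmin did not pass the test. Of the 45 members 30 rose and 3 fell (edgeR, adjusted p under 0.05), together 73.3%, beside 61.2% of all 16199 genes tested, with 36.2% of all genes higher and 25.0% lower. The median log2 change was 2.21 over the members, which is the fitted value of the thinly counted Nol3, and 0.34 over all genes. Nop16, Nol3 and Nol4 entered this test through the counts of 1 stage. Over the 42 members with counts enough in zygotes and in late 2-cell embryos, 29 rose and 2 fell (73.8%) with a median of 2.11, beside 60.6% of the 10853 genes that met the same condition (30.6% higher and 29.9% lower), with a median of -0.03. The median over all 16199 genes fell to between 0.16 and 0.21 without WT zygote replicate 2, without WT late 2-cell replicate 1 or 3, or without any 1 of the 11 R442Q embryos. Of the 45 members 31 lay higher and 2 lower without overlap of the stages, beside 32.1% and 24.6% of all genes. CPM are shares of a library, and RNA per embryo was not measured. A whole embryo was 1 library, so fewer cells of a type and less RNA per cell cannot be told apart. Zygotes and late 2-cell embryos came in separate tables, so a difference between tables cannot be told apart from stage.

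All 4 box C/D members rose in WT embryos. Fbl encodes fibrillarin, the methyltransferase of these particles; it had 2.15, 1.02, 1.5, 2.51 and 2.32 CPM in the 5 WT zygotes and 43.5, 55, 16.5 and 36.9 CPM in the 4 WT late 2-cell embryos. Every late 2-cell embryo lay above every zygote, and the log2 change was 4.24 ± 0.53 (SE; edgeR adjusted p 3.82e-07). Rrp9, which binds the U3 RNA of the small subunit processome, went from 14.3, 11.5, 18.3, 14.7 and 13.6 CPM to 273, 235, 211 and 228 CPM. Its log2 change was 3.95 ± 0.30 (SE; edgeR adjusted p 1.72e-10), with a narrow range at both stages. The scaffold proteins Nop58 and Nop56 changed by 2.27 ± 0.25 (SE; edgeR adjusted p 7.09e-08) and 0.94 ± 0.24 (SE; edgeR adjusted p 0.00174), so that Nop56, already abundant in zygotes, had the smallest rise of the 4.

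In the box H/ACA group Nhp2 rose by 4.10 ± 0.29 (SE; edgeR adjusted p 6.72e-11) on the log2 scale, from 16.6, 14.3, 15.3, 16.9 and 16.8 CPM in WT zygotes to 349, 290.5, 171 and 344 CPM in WT late 2-cell embryos. Nop10, the small core protein of the same particle, rose by 2.47 ± 0.25 (SE; edgeR adjusted p 1.52e-08), and Gar1 by 1.80 ± 0.50 (SE; edgeR adjusted p 0.0033). Dkc1, the catalytic subunit, stood at 166, 198, 123, 142 and 134 CPM in zygotes and 277, 188, 147 and 339.7 CPM in late 2-cell embryos. These ranges overlap, and its change of 0.57 ± 0.29 (SE; edgeR adjusted p 0.0897) did not pass. Of the 2 abundant nucleolar proteins, Ncl had 557, 639, 514, 387 and 351 CPM in zygotes and 476, 655, 361 and 376 CPM in late 2-cell embryos, with a log2 change of -0.14 ± 0.28 (SE; edgeR adjusted p 0.681). Npm1 had 764, 1061, 883, 859 and 858 CPM and 799, 1044, 440.4 and 836 CPM, with a change of -0.25 ± 0.23 (SE; edgeR adjusted p 0.353). For both genes the stages overlapped.

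Of the 19 members of the 40S group 14 rose and 1 fell in WT embryos. Nol11, a member of the UTP-A (t-UTP) subcomplex that binds the start of the precursor, had 1.48, 1.38, 4.87, 2.27 and 0.791 CPM in zygotes and 151, 187, 139 and 205 CPM in late 2-cell embryos. The stages were far apart, and the change was 6.22 ± 0.42 (SE; edgeR adjusted p 2.74e-11). The next largest rises were those of Utp23 (4.88 ± 0.39), Nop9 (4.50 ± 0.57) and Utp14b (4.30 ± 0.48), with adjusted p of 3.25e-10, 4.76e-07 and 7.51e-08 in edgeR. Nol10, a component of the processome, was the 1 that fell, from 112, 153, 165, 96.5 and 70.0 CPM to 38.8, 70.6, 47.5 and 47.5 CPM, a change of -1.29 ± 0.27 (SE; edgeR adjusted p 0.000283). WT late 2-cell replicate 2, at 70.6 CPM, lay just inside the zygote range. Utp4, Utp18, Utp20 and Nol6 did not pass; their log2 changes were -0.60, -0.24, -0.39 and 0.89.

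Of the 13 members of the 60S group 9 rose and 1 fell, and of the 12 with counts enough at both stages 8 rose and 1 fell. The remaining one is Nop16: the 5 WT zygotes together held 5 counts of it, 0 to 2 in each, and the 4 WT late 2-cell embryos stood at 150.3, 130.4, 125 and 189 CPM. All 5 zygotes were thus under 3 counts, the floor used here, and the pooled ratio had a wide interval: it was 1208-fold, with an exact 95% interval of 517 to 3723 that covers counting error only. The gene entered the fit through its late 2-cell counts, so its test is not given. Nop2, a methyltransferase of 28S ribosomal RNA, went from 3.96, 4.25, 0.504, 1.89 and 3.28 CPM to 175, 274, 152 and 231 CPM, a change of 6.15 ± 0.51 (SE; edgeR adjusted p 6.53e-10). Nop53, an adaptor between the large subunit precursor and the RNA exosome, rose by 4.70 ± 0.55 (SE; edgeR adjusted p 1.31e-07), and Bop1, a scaffold of the complex with Pes1 and Wdr12, by 4.03 ± 0.57 (SE; edgeR adjusted p 2.16e-06). The 3 members of that complex were unequal, since Wdr12 rose by 1.27 ± 0.34 (SE; edgeR adjusted p 0.00258) and Pes1 did not pass, at 0.25 ± 0.33 (SE; edgeR adjusted p 0.534).

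Rrp1b was the 60S member that fell, from 127, 152, 103, 87.3 and 115 CPM in WT zygotes to 50.5, 65.9, 36.3 and 65.7 CPM in WT late 2-cell embryos, without overlap, a change of -1.16 ± 0.35 (SE; edgeR adjusted p 0.0058). Its relative Rrp1 rose by 2.34 ± 0.33 (SE; edgeR adjusted p 2.32e-06). Rrp8, a methyltransferase of 28S ribosomal RNA, had a change of -0.01 ± 0.40 (SE; edgeR adjusted p 0.977), with overlapping stages. Among the 3 members outside the role groups, Nol4 fell from 9.77, 5.06, 8.07, 6.35 and 4.29 CPM in WT zygotes to 0 in all 4 WT late 2-cell embryos, which makes it at least 14.2-fold lower against the floor of 3 counts per library. Nol3, with at most 6.91 counts in any WT zygote, did not pass.

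**Figure D2:**
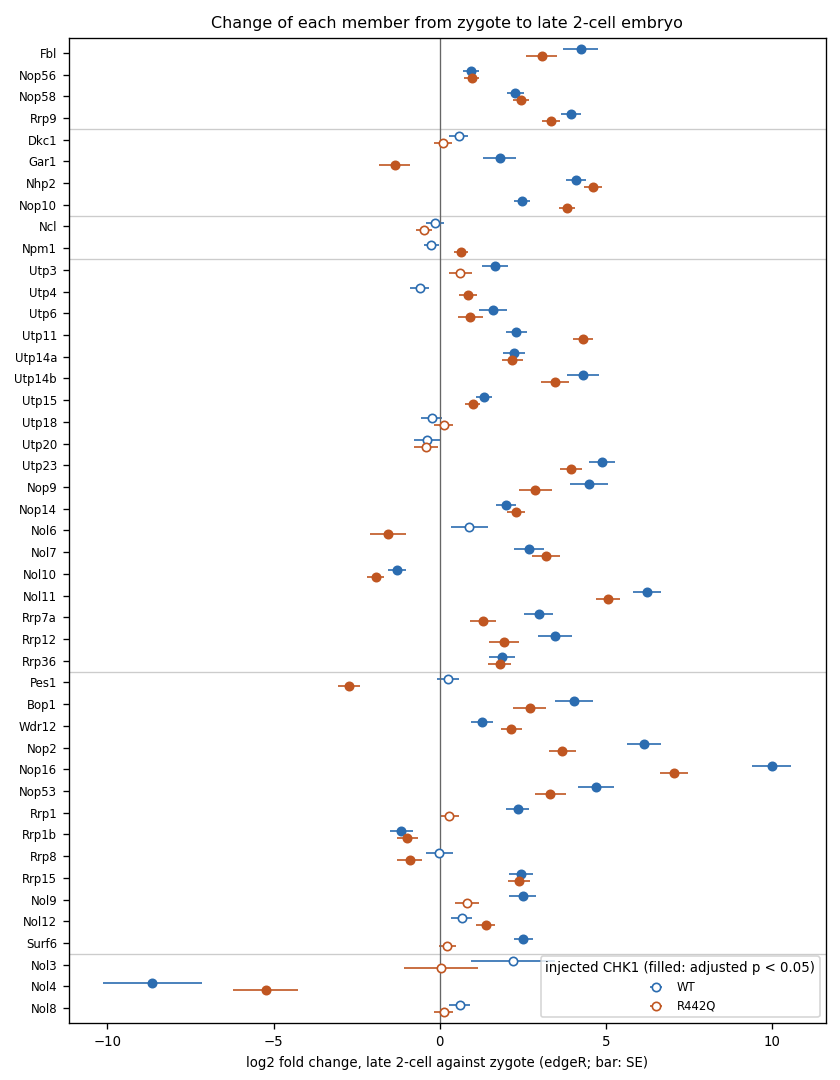
Log2 change of each of the 45 members from zygote to late 2-cell embryo (x axis, edgeR, bars: SE) in WT (blue) and R442Q embryos (orange), in blocks by role, filled where the adjusted p was under 0.05. Nop16, whose position depends on edgeR's prior count, and Nol11 lie farthest right in both, while Gar1 and Pes1 lie left of 0 in R442Q embryos, at -1.35 and -2.72, and right of it in WT embryos, at 1.80 and 0.25.

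The same change in R442Q embryos was tested in the same model of 4 groups. Here 28 members rose and 7 fell, together 77.8%, beside 65.1% of all genes tested (35.3% higher and 29.8% lower), and the median log2 change was 1.30 over the members and 0.22 over all genes, the latter 0.085 without late 2-cell replicate 3. Over the 42 members with counts enough at both stages 27 rose and 6 fell (78.6%) with a median of 1.34, beside 66.5% of the 10853 genes with a median of -0.19. Without overlap of the stages 23 members lay higher and 4 lower, beside 23.4% and 21.5% of all genes. With RLE size factors in place of TMM the median over all genes moved to 0.34 and that over the members to 1.42. With library totals alone they were 0.42 and 1.49, and with the replicate number as a block 0.046 and 1.03. Beside Nop16 the largest rises were those of Nol11 (5.06), Nhp2 (4.61), Utp11 (4.30), Utp23 (3.94), Nop10 (3.83), Nop2 (3.69) and Utp14b (3.47). The pooled ratio of Nop16 was 154-fold here, with an exact 95% interval of 123 to 197. The genes that fell were Nol4, Pes1, Nol10, Nol6, Gar1, Rrp1b and Rrp8, of which Nol10 changed by -1.93; Nol4 was at 0 in 4 of the 5 late 2-cell embryos and at 8 counts in replicate 3, so its fitted change depends on the prior count and is not given. Pes1 had values from 58.6 to 80.4 with a median of 70.2 CPM in the 6 R442Q zygotes and 12.2, 11.2, 13.9, 5.02 and 17.6 CPM in the 5 R442Q late 2-cell embryos. No late 2-cell embryo reached the zygote range, and the change was -2.72 ± 0.33 (SE; edgeR adjusted p 2.09e-07).

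Nol6, a component of the UTP-C subcomplex, ranged over 19.8 to 25.6 with a median of 23.3 CPM in R442Q zygotes and had 14.5, 0.698, 15.7, 0.502 and 13.3 CPM in R442Q late 2-cell embryos, of which replicates 2 and 4 were under 1 CPM. Its change was -1.56 ± 0.54 (SE; edgeR adjusted p 0.0145). Gar1 ranged over 5.12 to 10.7 with a median of 7.59 CPM in R442Q zygotes and had 2.07, 2.44, 2.31, 5.36 and 5.38 CPM in late 2-cell embryos, with a change of -1.35 ± 0.47 (SE; edgeR adjusted p 0.0142) and overlapping ranges. Npm1 rose in R442Q embryos, by 0.64 ± 0.21 (SE; edgeR adjusted p 0.00945), from 748 to 922 with a median of 823 CPM to 1843, 1367, 963, 1809.6 and 1364 CPM, without overlap. Utp4 rose by 0.85 ± 0.26 (SE; edgeR adjusted p 0.00642). Surf6, Rrp1 and Nol9, which rose in WT embryos, did not pass here, at 0.23, 0.29 and 0.82. Whether a change differed between the constructs is the subject of the interaction test, given after the comparisons within each stage. The call of Rrp8 was lost with RLE size factors, with library totals alone and in DESeq2, and in 8 of the 20 fits that left out an embryo; that of Utp6 was lost in 7 of the 20, and that of Rrp7a without late 2-cell R442Q replicate 5.

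Within zygotes, R442Q was compared with WT. Nucleolin, Nop58, Rrp1b and several 40S factors were lower in R442Q zygotes, and Nol11 was higher. Of 43 members tested 8 were lower and 1 higher (edgeR, adjusted p under 0.05), or 20.9%, beside 13.2% of the 12420 genes tested (6.92% lower and 6.3% higher); 43 had counts enough, and Nop16 and Nol3 did not. The median difference was -0.17 over the members and 0.01 over all genes. Summed over the 45 members, 2827 to 3835 CPM were found in WT zygotes and 2192 to 2588 CPM in R442Q zygotes, with no overlap. Abundant genes weigh most in this sum, with means in WT and R442Q of 885 and 835 CPM for Npm1, 489 and 259 for Ncl and 211 and 79.9 for Utp4. Of the 43 tested, 34 did not pass. Of all genes, 25.7% to 36.4% lay below the WT range of CPM in single R442Q zygotes and 16.2% to 18.8% above it. The count was 5 without WT replicate 1 or without R442Q replicate 2, with 1205 and 1279 calls over all genes in place of 1643, and 12 (11 lower and 1 higher) with limma on log2(FPKM + 1), where all genes gave 1231 lower and 411 higher calls in place of 860 and 783.

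Utp4 (cirhin), a subunit of the UTP-A subcomplex, had the most negative difference. It had 178, 269, 258, 199 and 154 CPM in the 5 WT zygotes and 55.1 to 114 with a median of 80.6 CPM in the 6 R442Q zygotes. Every R442Q zygote was below every WT zygote, and the log2 difference was -1.28 ± 0.17 (SE; edgeR adjusted p 0.000282). The call held in each of the 11 fits that left out 1 zygote and in every other alternative run. Nop14, another processome component, ranged over 9.67 to 23.9 with a median of 13.3 CPM in R442Q against 31.2, 39.9, 40.8, 23.5 and 28.5 CPM in WT, a difference of -1.01 ± 0.22 (SE; edgeR adjusted p 0.00606) with 1 R442Q zygote, at 23.9 CPM, inside the WT range. The calls of Utp20 (-0.79 ± 0.25) and Utp11 (-0.70 ± 0.19), with edgeR adjusted p of 0.0471 and 0.0243, were lost in 8 and 6 of the 11 fits that left out a zygote, without WT replicate 1 and R442Q replicate 2 among them. That of Utp20 was also lost with RLE size factors (adjusted p 0.0506) and with limma on log2(FPKM + 1) (0.117).

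Ncl had 557, 639, 514, 387 and 351 CPM in WT zygotes and 205 to 319.8 with a median of 265 CPM in R442Q zygotes. The highest R442Q zygote was just under the lowest WT one, and the difference was -0.79 ± 0.15 (SE; edgeR adjusted p 0.00242). Nop58 had 72.7, 83.9, 67.2, 56.2 and 73.3 CPM in WT and 23 to 53.1 with a median of 33.5 CPM in R442Q, again without overlap, for a difference of -0.89 ± 0.17 (SE; edgeR adjusted p 0.00268). Its partner Nop56 did not pass, at -0.26 ± 0.15 (SE; edgeR adjusted p 0.272), nor did Fbl, at -0.35 ± 0.48 (SE; edgeR adjusted p 0.693). Rrp1b had 127, 152, 103, 87.3 and 115 CPM in WT and 41.1 to 68.6 with a median of 58.2 CPM in R442Q, without overlap, for -0.91 ± 0.15 (SE; edgeR adjusted p 0.00109). Wdr12 differed by -0.86 ± 0.26 (SE; edgeR adjusted p 0.0406), a call that was lost in 7 of the 11 fits, without WT replicate 1 or R442Q replicate 2 among them, while its partners Pes1 and Bop1 differed by 0.08 ± 0.14 and -0.15 ± 0.36 and did not pass. None of the 4 box H/ACA members passed, with Gar1 at 0.56 ± 0.39 and Dkc1 at -0.17 ± 0.12; Npm1 stood at 0.04 ± 0.09.

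Nol11 was the 1 member higher in R442Q zygotes, at a very low level: 1.48, 1.38, 4.87, 2.27 and 0.791 CPM in WT and 2.45 to 7.24 with a median of 5.66 CPM in R442Q. The ranges overlapped, the difference was 1.40 ± 0.45 (SE; edgeR adjusted p 0.0486), and of the 11 fits that left out a zygote the call held in those without WT replicate 3 or R442Q replicate 5. The exons of Nol11 overlap Gm11715 on the other strand, and the counting is not stated to use strand. Constructs did not overlap, with R442Q lower, for 5 members (Ncl, Nop58, Rrp1b, Utp3 and Utp4), beside 6.84% of all genes, and with R442Q higher for 0, beside 2.54%; Utp3 did not pass, at -0.36 ± 0.15 (SE; edgeR adjusted p 0.124). In the joint fit with late 2-cell embryos, whose spread is shared, Utp4 was the 1 lower member still called, and 3 members were called in all, against 197 higher and 73 lower calls over all genes. Markers of the 2-cell stage summed to 28.1 to 78.1 FPKM in WT and 76.6 to 175 FPKM in R442Q zygotes, ranges that just overlap. Neither this difference nor its part in these results was tested.

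In late 2-cell embryos R442Q was again compared with WT. Pes1, Surf6, Rrp1 and Nol9 were lower in R442Q embryos, together with Rrp12 of the 40S group and Gar1 of the box H/ACA group. Of 44 members tested 6 (13.6%) were lower and 0 higher (edgeR, adjusted p under 0.05; 15 lower and 3 higher at an unadjusted p under 0.05, a level that 2910 of all genes reached), beside 4.18% of the 13883 genes tested (2.95% lower and 1.22% higher). The median difference was -0.57 over the members and 0.07 over all genes, the latter 0.018 without R442Q replicate 3, 0.045 without R442Q replicate 2 and -0.093 with the replicate number as a block. The summed level of the 45 members overlapped, at 4507 to 7836 CPM in WT and 4212 to 6866 CPM in R442Q. The number depended on the setting: 13 members were lower and 3 higher in DESeq2 (736 genes higher and 928 lower over all). In the joint fit with zygotes 14 were lower and 3 higher, and 3 were lower with the trend on GC content and length removed. With the replicate number as a block 1 member was lower, with 58 calls over all genes. The count was 2 without WT replicate 2 and 3 without WT replicate 4, with 142 and 209 calls over all genes in place of 580. Without R442Q replicate 3, the embryo that stood apart, 5 members were lower and 3 higher (Nop10, Npm1 and Utp11), with 515 genes lower and 376 higher in place of 410 and 170.

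Pes1 (ENSMUSG00000020430.12, chromosome 11, 3963975 to 3980004 of GRCm38) is a member of the complex with Bop1 and Wdr12 that processes the 28S precursor. It had 73.6, 161, 34.1 and 82.3 CPM in WT and 12.2, 11.2, 13.9, 5.02 and 17.6 CPM in R442Q late 2-cell embryos. Every R442Q embryo was below every WT embryo, and the difference was -2.79 ± 0.48 (SE; edgeR adjusted p 0.0103), larger than the spread in both groups. In zygotes the same gene had 91, 64.5, 59.6, 70.0 and 70.6 CPM in WT and 58.6 to 80.4 with a median of 70.2 CPM in R442Q, which overlap. Its call held in all 9 fits that left out an embryo and in every other alternative run except that with the replicate number as a block. Of its 50-base stretches 23.3% also occur in other genes, chiefly the copy Gm5910, and its exons overlap 4930556J24Rik on the other strand, so its counts may be shared. Of its partners, Bop1 differed by -1.38 ± 0.60 (SE; edgeR adjusted p 0.199) and Wdr12 by 0.11 ± 0.35 (SE; edgeR adjusted p 0.901); neither passed.

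Surf6 (ENSMUSG00000036160.13, chromosome 2, 26888628 to 26902879), a nucleolar protein of early large subunit particles, had 159, 125, 89.1 and 131 CPM in WT and 11.4, 14.5, 30.2, 21.9 and 14.7 CPM in R442Q late 2-cell embryos. The groups were far apart, and the difference was -2.69 ± 0.34 (SE; edgeR adjusted p 0.00211), called in all 9 fits that left out an embryo. WT zygotes had 18.7, 21.5, 14.1, 29.2 and 20.7 CPM, so R442Q late 2-cell embryos were near the zygote level. Rrp1 (ENSMUSG00000061032.9, chromosome 10, 78400384 to 78413043) had 52.1, 74, 57.3 and 75.9 CPM in WT and 5.69, 20.1, 15.3, 18.4 and 13.5 CPM in R442Q. These too did not overlap, the difference was -2.08 ± 0.39 (SE; edgeR adjusted p 0.0132), and the call was lost without WT replicate 2. Nol9 (ENSMUSG00000028948.16, chromosome 4, 152039321 to 152061494), a polynucleotide kinase that acts on the spacer of the 28S precursor, had 220.5, 381, 79 and 181 CPM in WT and 67.5, 88, 64.2, 26.8 and 71.9 CPM in R442Q. R442Q replicate 2 lay above the lowest WT embryo, the difference was -1.67 ± 0.44 (SE; edgeR adjusted p 0.0464), and the call held in 1 of the 9 fits, without WT replicate 3, and was lost with limma on FPKM (adjusted p 0.0659).

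Gar1 (ENSMUSG00000028010.16, chromosome 3, 129824912 to 129831396), a core protein of box H/ACA particles, had 23, 28.6, 16.8 and 17.2 CPM in WT and 2.07, 2.44, 2.31, 5.36 and 5.38 CPM in R442Q late 2-cell embryos. The difference was -2.50 ± 0.55 (SE; edgeR adjusted p 0.0229), without overlap, and the call was lost without WT replicate 1, 2 or 4. The 3 other proteins of the same particle did not pass. Nop10 had 195, 190.3, 114 and 179 CPM in WT and 397, 242, 239, 489 and 330.3 CPM in R442Q, above WT in every embryo, with a difference of 1.11 ± 0.33 (SE; edgeR adjusted p 0.0714), which was 0.05 with the trend on GC content and length removed. Nhp2 and Dkc1 differed by 0.60 ± 0.37 (SE; edgeR adjusted p 0.372) and -0.55 ± 0.38 (SE; edgeR adjusted p 0.448). Rrp12 (ENSMUSG00000035049.4, chromosome 19, 41862851 to 41896173), which accompanies the 40S precursor out of the nucleus, had 60.3, 151, 68.2 and 93.4 CPM in WT and 8.11, 20.8, 36.9, 4.19 and 22.7 CPM in R442Q. There was no overlap, the difference was -2.29 ± 0.52 (SE; edgeR adjusted p 0.0266), and the call was lost without WT replicate 2 or 4 or R442Q replicate 1 or 2.

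Other members did not overlap between the constructs without passing the test. R442Q was lower in all embryos for 10 members, beside 8.77% of all genes, and higher for 2, beside 3.67%. Beside the called Gar1, Pes1, Rrp1, Rrp12 and Surf6 these were Ncl, Nop2, Nop53, Nol6 and Rrp7a on the lower side and Nop10 and Utp11 on the higher. Nucleolin and nucleophosmin lay on opposite sides of 0: Ncl had 476, 655, 361 and 376 CPM in WT and 87.1, 286, 195, 192 and 308 CPM in R442Q, for -1.04 ± 0.36 (SE; edgeR adjusted p 0.109). Npm1 had 799, 1044, 440.4 and 836 CPM and 1843, 1367, 963, 1809.6 and 1364 CPM, for 1.02 ± 0.34 (SE; edgeR adjusted p 0.0999), with R442Q replicate 3 inside the WT range. With the trend on GC content and length removed the values were -1.05 for Ncl and 0.40 for Npm1. Utp11 had 54.2, 101, 80.9 and 181 CPM and 387, 263, 182, 253 and 194 CPM, for 1.39 ± 0.40 (SE; edgeR adjusted p 0.0685). Of the box C/D members, Fbl differed by -1.42 ± 0.50 (SE; edgeR adjusted p 0.124) and Nop58 by -0.62 ± 0.32 (SE; edgeR adjusted p 0.283), and none passed.

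**Figure D3:**
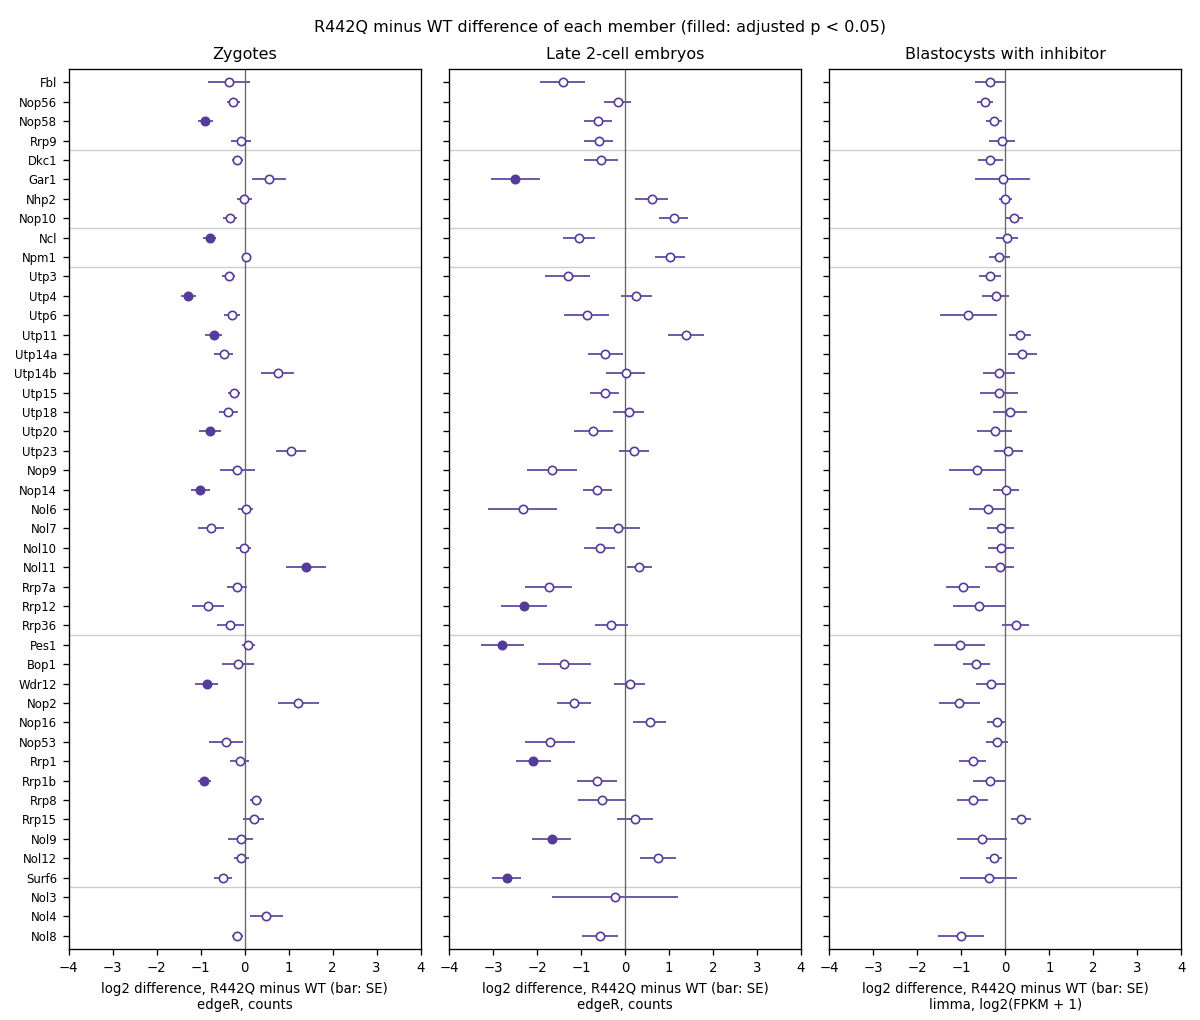
Log2 difference R442Q minus WT of each tested member (x axis, bars: SE) in zygotes and late 2-cell embryos (edgeR on counts) and in blastocysts with inhibitor (limma on log2(FPKM + 1)), in blocks by role, filled where the adjusted p was under 0.05. Utp4 lies farthest left in zygotes at -1.28, Pes1 and Surf6 in late 2-cell embryos at -2.79 and -2.69, and no blastocyst point is filled.

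The late 2-cell differences moved with the GC content of the transcripts. Pearson's r between GC content and the log2 difference was -0.521 across the 44 members tested and -0.269 across 13764 genes (Spearman's rho -0.517 and -0.270), as a description, since genes of 1 set of libraries share their embryos. The median GC content was 51.9% for the 31 members with a negative difference and 45.2% for the 13 with a positive one. For the 6 called lower it was 54.8%. In zygotes the correlation across 43 members was 0.165 (rho 0.272), and in blastocysts it was -0.315 (rho -0.334), beside -0.106 over all genes there, and -0.215 (rho -0.233) across the members without R442Q replicate 7. GC content weighted by counts was 48.2% to 48.9% in WT late 2-cell libraries and 47.5% to 48.1% in R442Q ones, without overlap, and overlapped in zygotes. With the trend of each library on GC content and length removed, Pes1, Surf6 and Gar1 were still called, at -2.78, -2.20 and -2.47, and Rrp12, Rrp1 and Nol9 stood at -1.54, -1.47 and -1.0 with edgeR adjusted p of 0.13, 0.0718 and 0.26. Of the members that did not pass, Nop10 went from 1.11 to 0.05, Npm1 from 1.02 to 0.40, Nhp2 from 0.60 to 0.21 and Bop1 from -1.38 to -0.73, while Nol12 went from 0.76 to 1.34, Nol7 from -0.16 to -0.72, Nol10 from -0.58 to -0.79 and Dkc1 from -0.55 to -0.74, farther from 0. The members' median there was -0.60, against -0.57 without that step, and the calls over all genes were 194 in place of 580. Of the stage markers, the 10 oocyte and zygote markers summed to 1496 to 3658 FPKM in WT and 2002 to 7399 FPKM in R442Q late 2-cell embryos, and the 10 markers of the 2-cell stage to 126 to 1312 and 652 to 2692 FPKM. Both ranges overlapped between the constructs, with no marker of either list at 0 throughout. Their part in the result was not tested.

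**Figure D4:**
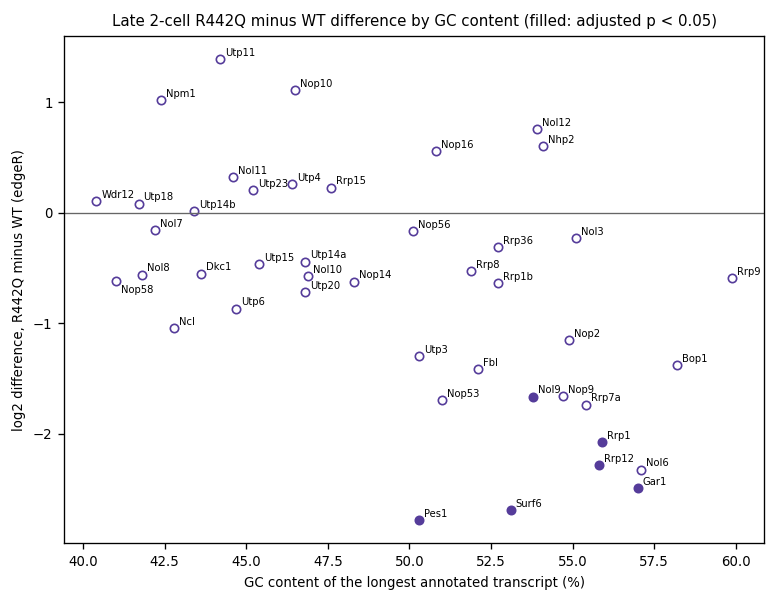
Log2 difference R442Q minus WT in late 2-cell embryos (y axis, edgeR) against the GC content of the longest annotated transcript (x axis, %) for the 44 members tested, filled where the adjusted p was under 0.05. The filled points lie between 50.3% (Pes1) and 57.0% (Gar1), and the members under 50% GC lie at -1.04 (Ncl) or above.

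Whether the difference between constructs changed from zygote to late 2-cell was tested as an interaction over the same 20 embryos, so these values share their samples with the comparisons above. Of 45 members 10 (22.2%) passed (edgeR, adjusted p under 0.05), 7 lower and 3 higher, beside 10.1% of 16199 genes (7.05% lower and 3.07% higher), and the median was -0.61 over the members and -0.16 over all genes. The 10 include Nop16, whose counts in WT zygotes were under the floor and which entered this test through its late 2-cell counts. Over the 42 members with counts enough at both stages 9 (21.4%) passed, 6 lower and 3 higher, beside 13% of the 10853 genes with such counts (8.76% lower and 4.2% higher), with medians of -0.54 and -0.09. In the 20 fits that left out 1 embryo the median over the members ran from -0.71 to -0.32, the latter without late 2-cell R442Q replicate 4, and that over all genes from -0.18 to 0.02; those over the members that moved by over 1.5 times were -0.32, -0.35 without zygote R442Q replicate 1, -0.37 without zygote R442Q replicate 2, and -0.40 without late 2-cell R442Q replicate 2. With RLE size factors the median over all genes was -0.01 and that over the members -0.45, and 6 members passed lower and 4 higher; over all genes the calls were 1142 lower and 497 higher with TMM and 917 and 707 with RLE. Without late 2-cell R442Q replicate 3, the embryo that stood apart, 1282 genes were lower and 1029 higher, with 7 and 4 members; without late 2-cell R442Q replicate 5 the figures were 1017 and 800, with 9 and 4 members. The lower calls over all genes were 670 without WT zygote replicate 2 (1089 in all), 740 without WT late 2-cell replicate 2 and 717 and 749 without R442Q zygote replicate 2 or 4. The lower side, given as log2 difference ± SE with the edgeR adjusted p, held Gar1 (-3.15 ± 0.68, adjusted p 0.0048), Pes1 (-2.97 ± 0.46, 0.000398), Surf6 (-2.28 ± 0.39, 0.000716) and Rrp1 (-2.05 ± 0.44, 0.00491), 4 genes also called within late 2-cell embryos. It held as well Nop2 (-2.46 ± 0.60, 0.0104) and Nol6 (-2.46 ± 0.78, 0.0464), besides Nop16. The value of Nop16 rests on 5 counts in all WT zygotes and depends on edgeR's prior count, so it is not given here, and the call of Nol6 was lost in 16 of the 20 fits that left out an embryo, each WT embryo among them. Within zygotes R442Q embryos held 74 counts of Nop16 together.

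For Nop2, WT zygotes had 3.96, 4.25, 0.504, 1.89 and 3.28 CPM and R442Q zygotes 3.61 to 12.3 with a median of 5.3 CPM, whereas late 2-cell embryos had 175, 274, 152 and 231 CPM in WT and 126, 50.8, 50.1, 76.9 and 127 CPM in R442Q. The constructs overlapped in zygotes and did not in late 2-cell embryos, and neither difference within a stage passed (1.22 ± 0.47 and -1.16 ± 0.38, edgeR adjusted p 0.0951 and 0.0994). On the higher side stood Utp11 (2.00 ± 0.42, 0.00421), Utp4 (1.45 ± 0.39, 0.0197) and Nop10 (1.36 ± 0.33, 0.0113). Utp4, the member most reduced in R442Q zygotes, had 134, 155, 128 and 168 CPM in WT and 244, 96.4, 94.8, 211 and 159.7 CPM in R442Q late 2-cell embryos, which overlap, with a difference of 0.26 ± 0.36 (SE; edgeR adjusted p 0.739). By role, 4 of the 12 members of the 60S group with counts enough at both stages passed, all lower, against 3 of 19 of the 40S group, 2 of 4 of box H/ACA and 0 of 4 of box C/D. Differences between these shares were not tested. The interaction moved with GC content as well: r was -0.508 across the 45 members (rho -0.575) and -0.176 across 16041 genes, and the median GC content was 54.9% for the 7 lower and 46.4% for the 3 higher members. With the trend on GC content and length removed, an alternative chosen after the data were seen, 6 members were lower and 2 higher, Nop16 included, beside 843 and 326 of all genes. There Nol6 stood at -1.72 and Nop10 at 0.57, with edgeR adjusted p of 0.178 and 0.287, and neither passed. Gar1, Pes1, Surf6, Rrp1, Nop2, Utp11 and Utp4 still passed, at -3.11, -2.94, -1.86, -1.51, -2.13, 1.98 and 1.41.

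**Figure D5:**
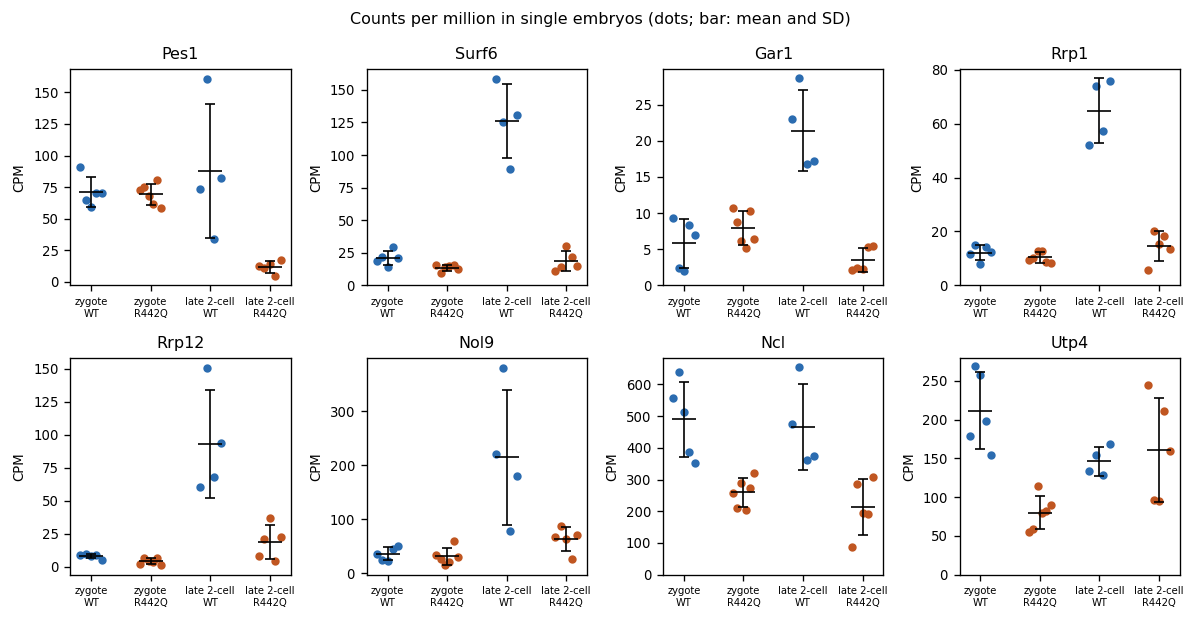
CPM of 8 members in each zygote and late 2-cell embryo (dots; horizontal bar: mean, error bar: SD; blue WT, orange R442Q). Late 2-cell R442Q dots lie below all WT dots for Pes1, Surf6, Gar1, Rrp1, Rrp12 and Ncl, overlap them for Nol9 and Utp4, and the zygote dots are apart for Ncl and Utp4.

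In blastocysts, all grown with the inhibitor, 0 of 43 members passed (limma, adjusted p under 0.05; 5 at an unadjusted p under 0.05), beside 0.00885% of 11297 genes, which is 1 gene and is higher, and 836 genes at an unadjusted p under 0.05. Nol3 and Nol4 were too low to test. For 0 members were the constructs apart without overlap, beside 0.354% of all genes with R442Q higher and 0.062% with R442Q lower. The median difference was -0.24 over the members and -0.10 over all genes, on the log2(FPKM + 1) scale, which understates changes of low genes. Without R442Q replicate 7 it was -0.08 and 0.00, 0 members passed, and 2 were at an unadjusted p under 0.05 (729 of all genes); in the 14 fits that left out 1 embryo the members' count stayed at 0. The members' median was -0.15 without WT replicate 5, with -0.06 over all genes, and 30 genes, all higher, passed without WT replicate 7. In R442Q replicate 7 28 of 43 members (65.1%) lay below the WT range, as did 34.4% of all genes, whereas in the other 6 R442Q embryos 1 to 11 members (2.33% to 25.6%) did, beside 5.66% to 12.4% of all genes. Its low values included Gar1 at 0.27 FPKM, Pes1 at 0.11, Utp6 at 0.02, and Surf6 and Rrp12 listed at 0.

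Of the genes that were lower in R442Q late 2-cell embryos, Pes1 ranged over 18.4 to 45.5 with a median of 25.4 FPKM in WT and 0.11 to 27.5 with a median of 23.4 FPKM in R442Q blastocysts. The difference was -1.04 ± 0.58 (SE; limma adjusted p 0.756), and -0.42 ± 0.27 (SE; limma adjusted p 0.917) without replicate 7. Surf6 ranged over 2.17 to 29.4 with a median of 10.4 FPKM and 0 to 19.5 with a median of 15.1 FPKM, with -0.38 ± 0.65 (SE; limma adjusted p 0.932), and 0.13 ± 0.50 (SE; limma adjusted p 1) without that embryo. Gar1 ranged over 5.99 to 33.5 with a median of 19.1 FPKM and 0.27 to 38.9 with a median of 23.1 FPKM, with -0.06 ± 0.62 (SE; limma adjusted p 0.991), and 0.57 ± 0.33 (SE; limma adjusted p 0.887) without it. All 3 overlapped between the constructs, and the sign for Surf6 and Gar1 turned with 1 embryo. Rrp1 ranged over 56.2 to 163 with a median of 118 FPKM and 24.1 to 108 with a median of 80.6 FPKM, with -0.74 ± 0.31 (SE; limma adjusted p 0.584), and -0.50 ± 0.24 (SE; limma adjusted p 0.776) without replicate 7. Nop56, the member with the lowest unadjusted p, ranged over 417 to 748 with a median of 658 FPKM and 346 to 638 with a median of 404 FPKM, with -0.46 ± 0.18 (SE; limma adjusted p 0.495), and -0.42 ± 0.18 (SE; limma adjusted p 0.691) without it. Npm1 and Ncl differed by -0.14 ± 0.24 and 0.04 ± 0.25, and Nhp2 by 0.00 ± 0.15; without replicate 7 these were -0.12 ± 0.26, 0.19 ± 0.22 and 0.04 ± 0.15. Trophectoderm markers summed to 3210 to 24288 FPKM in WT and 1250 to 12886 FPKM in R442Q blastocysts; their part was not tested.

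The pathway has many genes outside the symbol rule, and 127 of them were read in the same fits from 5 lists. In zygotes 32 of 124 tested were lower in R442Q and 4 higher, together 29.0% (edgeR, adjusted p under 0.05), beside 13.2% of all genes, with a median of -0.28. The lower ones included Wdr75 (-1.14 ± 0.26) and Bms1 (-1.12 ± 0.16) of the small subunit processome, Gnl2 (-1.58 ± 0.26) and Ddx55 (-1.44 ± 0.24) of 60S assembly, Znrd1 (-0.95 ± 0.23), a subunit of RNA polymerase I, Exosc10 (-0.94 ± 0.21), a nuclease of the exosome, and Ruvbl2 (-0.82 ± 0.17), a helicase that builds small nucleolar ribonucleoproteins. The largest of the 4 higher ones was Mak16 (1.83 ± 0.52) of 60S assembly. By list, the lower and higher counts were 12 and 0 of 37 for the small subunit processome with other small subunit assembly factors. They were 11 and 2 of 41 for 60S assembly and 5 and 1 of 21 for RNA polymerase I. For ribonucleoprotein assembly they were 3 and 0 of 12, and for the RNA exosome 1 and 1 of 13. In late 2-cell embryos 14 of 127 were lower and 0 higher, beside 2.95% and 1.22% of all genes, with a median of -0.07. They included Ddx54 (-3.76 ± 0.52) and Rrs1 (-2.64 ± 0.41) of 60S assembly. Also among them were Nat10 (-3.12 ± 0.78), the acetyltransferase of 18S ribosomal RNA, and Pwp2 (-2.86 ± 0.54) of the processome. Cd3eap (-2.19 ± 0.40) and Ubtf (-2.14 ± 0.43) belong to the RNA polymerase I list. Ubtf encodes the factor that binds the ribosomal gene promoter. The calls of these lists are given for the main fits only. Over all genes the zygote calls were 270 in the joint fit in place of 1643. Those in late 2-cell embryos were 194 with the trend on GC content and length removed and 142 without WT replicate 2, in place of 580.

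From zygote to late 2-cell, the counts are over the 124 genes with counts enough at both stages, without Zfp622, Exosc6 and Taf1c. Of these 83 rose and 10 fell in WT embryos, with a median of 1.60, and 85 rose and 12 fell in R442Q embryos, with a median of 1.43. Of the 10853 genes with such counts 30.6% rose and 29.9% fell in WT embryos and 30.4% and 36.1% in R442Q embryos. RNA polymerase I genes rose in 17 of 21 cases in WT, led by Ubtf (5.21 ± 0.46) and Ttf1 (4.81 ± 0.47), and Taf1a was the 1 that fell (-0.67 ± 0.24). Riok1 (-3.71 ± 0.31), a kinase of late 40S maturation, and Efl1 (-3.35 ± 0.55), which helps release a factor from the 60S subunit, fell in WT embryos. The interaction passed for 8 higher and 15 lower of the 124, beside 4.2% and 8.76% of the 10853 genes, with a median of 0.09. In blastocysts 0 of 123 passed (limma, replicate 7 included; 9 at an unadjusted p under 0.05). By list the interaction was higher and lower for 2 and 4 of the RNA polymerase I genes and 2 and 5 of the processome and 40S assembly genes. It was so for 3 and 6 of the 60S genes, 1 and 0 of the ribonucleoprotein assembly genes and 0 and 0 of the exosome genes.

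Reads of some members may be shared with other genes. For 10 of the 45, over 10% of the 50-base stretches of the transcripts occur in another gene (Fbl, Nol3, Nol7, Nop9, Nop56, Npm1, Pes1, Rrp7a, Utp14a and Utp23), with 24.3% for Npm1 and 19.7% for Fbl, so their levels are uncertain where the counting split such reads. The exons of 17 members overlap a gene on the opposite strand, among them Nop14, Rrp1b and Wdr12 of the zygote comparison and Pes1 of the late 2-cell comparison; without strand, reads of the 2 genes cannot be told apart. Surf6, Gar1, Rrp1, Rrp12 and Nol9 had at most 0.2% of stretches in other genes and no such overlap.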

How the data were processed

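Whole single embryos were lysed and their cDNA was made with the SMART-seq2 method, cut by the transposase Tn5 and read on a HiSeq X-10 after a Nextera preparation, per the labels' protocols. For zygotes and late 2-cell embryos the authors deposited estimated counts per gene, not normalised, and FPKM tables; for blastocysts only the deposited FPKM values were used. RSEM and the build mm10 are named, without a version, in the submitters' processing notes; the annotation and the use of strand are not given in the sources used here. Positions, GC content and shared sequence are from GENCODE M21 (GRCm38).

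Estimated counts were rounded and tested in R 4.3.3 with edgeR 4.0.16 (quasi-likelihood test, TMM, filterByExpr with a minimum count of 10), R442Q against WT within each stage and, in a model of 4 groups, late 2-cell against zygote and the interaction. For blastocysts log2(FPKM + 1) was tested by limma 3.58.1 with eBayes and its trend option, and 7 of the 14 embryos had to reach 1 FPKM for a gene to enter. P-values were adjusted by Benjamini-Hochberg over all genes tested, with a threshold of 0.05. SEs of edgeR are the log2 difference divided by the root of its F. CPM are counts scaled to the library total, and 3 counts served as the floor of a library; floors and intervals cover counting error only. Groups and replicate numbers are those of the sample titles. The scripts were tested on simulated data.

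Alternatives were RLE size factors, library totals alone, DESeq2 1.42.0, no filter, limma on FPKM, another pseudocount, a joint fit, removal of a GC and length trend, each embryo left out and the replicate number as a block; removal of that trend from the interaction was added after the data were seen. The members, role lists, pathway lists and tests were chosen with earlier results of these data known. The genes named were 13 core members, up to 8 rises and 8 falls past the threshold in each comparison, the 3 highest and 3 lowest by FPKM in each stage, the ends of a list's range, and, of the 5 pathway lists, some of the 2 largest rises and falls; others were added after their values were seen. No sequence or position is given for Nol4.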

Additional observations from a re-analysis of the deposited data

Results flagged for a closer look

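For 10 members the difference between the constructs was itself different in late 2-cell embryos and zygotes, by the interaction test in edgeR. It was negative, on the log2 scale, for Gar1 (-3.1518), Pes1 (-2.9698), Nop16 (-2.9384), Nop2 (-2.4608), Nol6 (-2.4552), Surf6 (-2.28) and Rrp1 (-2.0494). The value of Nop16 rests on 5 counts over the 5 WT zygotes and depends on edgeR's prior count; the gene was tested through its late 2-cell counts, so it is no measured size and adds nothing to the count of the other 9. It was positive for Utp11 (1.9959), Utp4 (1.45) and Nop10 (1.3573). Nol6 and Nop10 did not pass with the trend on GC content and length removed.

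Single embryos stood far from the rest of their group for 2 members, out of 96 groups of values examined, a check that chance alone meets in about 1 of 20 groups. Nop56 was at 278.712 CPM in WT zygote replicate 2, against 168 to 198 CPM in the other 4. Dkc1 was at 152.69 FPKM in R442Q blastocyst replicate 3, against 33.1 to 81.9 FPKM in the other 6.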

How the results depend on the processing

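The rises and falls of the members from zygote to late 2-cell in WT embryos kept their direction and their call in each of the 24 settings run without a block. The R442Q differences within a stage were less steady. In zygotes 9 members were called and 3 in the joint fit of 4 groups, where all genes gave 270 calls in place of 1643. In late 2-cell embryos 6 were called, against 16 in DESeq2 (1664 of all genes in place of 580), 13 without a filter on low counts (889 of all genes), 17 in the joint fit (2507) and 3 with the GC and length trend removed (194). The causes were not tested.

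With each embryo left out in turn the number called was 5 to 8 in zygotes (5 without WT replicate 1 or R442Q replicate 2), 2 to 8 in late 2-cell embryos (2 without WT replicate 2, 3 without WT replicate 4), 0 in blastocysts, 33 to 35 and 33 to 37 for the stage change in WT and R442Q embryos, and 9 to 13 for the interaction. Replicate numbers of the titles showed no pairing of the embryos. Correlations of same-numbered deviations ran from -0.168 to 0.204 over all comparisons and were not all over 0.1 in any. The sample descriptions number some zygotes and late 2-cell embryos otherwise, and not alike in WT and R442Q. A pairing by those numbers was not tested, and the block fits do not cover it. With the replicate number as a block the members called were 6 in zygotes (1217 of all genes), 1 in late 2-cell embryos (58), 0 in blastocysts (0), 33 and 35 for the stage change (9342 and 9855) and 10 for the interaction (1085 of all genes in place of 1639, against 2446 in DESeq2, where 12 members were called). The depth of blastocysts is unknown, and members with few counts in zygotes, such as Nop16, Nol11 and Nop2, have wide errors there.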

Other observations

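Spread between embryos differed among the members. Given as the SD of log2 values, Nhp2 was the steadiest member in WT zygotes (0.10) and WT blastocysts (0.23), and Nol11, at 0.21, in R442Q late 2-cell embryos. The widest were Nol6 in R442Q late 2-cell embryos (1.80), with 2 of 5 embryos under 1 CPM, and Utp6 in R442Q blastocysts (1.85), where replicate 7 stood at 0.02 FPKM and the SD of the other 6 was 0.41. The median SD over the members was 0.30 in WT and 0.38 in R442Q zygotes, 0.45 and 0.64 in late 2-cell embryos, and 0.56 and 0.60 in blastocysts, the last 0.44 without replicate 7. Genes with means in the members' interquartile range had medians of 0.28 and 0.33, 0.39 and 0.56, and 0.54 and 0.61. The last includes replicate 7, so the members' value to set beside it is 0.60.

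Single R442Q embryos differed in how many members lay below the range of the WT embryos of their stage. In zygotes it was 16 to 22 of the 43 tested (37.2% to 51.2%) in each of the 6 embryos, beside 25.7% to 36.4% of all genes. In late 2-cell embryos it was 18, 24, 26, 29 and 14 of 44, or 40.9%, 54.5%, 59.1%, 65.9% and 31.8%, beside 37.6%, 31.0%, 25.8%, 37.0% and 30.3% of all genes. In replicates 1 and 5 the members' share was thus near that of all genes. In blastocysts it was 1 to 11 of 43 in replicates 1 to 6 and 28 in replicate 7, or 2.33% to 25.6% and 65.1%, beside 5.66% to 12.4% and 34.4% of all genes.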
